A study of Mus musculus with 8 samples.

Results

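The genes described here are Trp53, which encodes the transcription factor p53, and 9 genes that p53 is known to act on or to be held back by: Mdm2, Mdm4, Ppm1d, Cdkn1a, Ccng1, Btg2, Plk2, Gtse1 and Trp73. They were chosen by name from the deposited tables of expression per gene, in which each of the 10 had 1 row, out of 20388 genes kept. RNA came from mouse embryonic stem cells derived from tatsf1 flox/flox CreERT2 mice and cultured on feeder cells, mouse embryonic fibroblasts (MEFs). The groups were tamoxifen for 72 h, ethanol for 72 h, tamoxifen for 48 h and ethanol for 48 h, with 2 libraries each and 8 in all. Tamoxifen switches on CreERT2, a recombinase, which then deletes Htatsf1, the gene of an RNA-binding protein, and ethanol is the control. Cells of all 4 groups carry the floxed allele and CreERT2, and no group here had tamoxifen without the floxed allele, so the effects of tamoxifen, of active Cre and of losing Htatsf1 cannot be told apart. The labels name no separate cultures or cell lines behind the libraries, so the p-values below rest on a spread that may be purely technical.

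In unstressed cells the ubiquitin ligase MDM2 marks p53 for destruction, and its relative MDM4 binds p53 and blunts its activity as a transcription factor. DNA damage and other stresses free p53, which then switches on genes that halt the cell cycle, such as Cdkn1a, and also Mdm2 itself, so that the response feeds back on p53. Mouse embryonic stem cells are known for a high level of p53, much of whose control acts on the protein and not on the messenger RNA measured here.

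The sequences around the start sites of these genes are shown because p53 binds a known element and all 10 genes were higher in tamoxifen. A half-site of that element has 10 bases (3 purines, C, 2 bases that are A or T, G, 3 pyrimidines). Its pattern reads alike on both strands. The full element searched for here is 2 half-sites with no gap, 20 bases in all. Pairs of half-sites with a gap, and sequences outside the windows below, were not searched. RefSeq start sites on GRCm38.p6 gave 14 windows for the 10 genes, each from 250 bases before to 50 bases after the start. Full elements that kept the C and G of both cores and had at most 2 mismatches, a limit set after the windows were seen, were found in 4 of the 14 windows and in 107 of all 32851 windows (0.326%). Exact half-sites, which can lie inside a full element, stood in 6 of the 14 windows and in 8.36% of all windows. The 10 genes were chosen for known ties to p53, so these counts are no independent support for p53 acting on them here. Capitals mark the full element, or for Mdm2 the half-site, and lower case the bases beside it, cut where an annotated exon begins:
Cdkn1a: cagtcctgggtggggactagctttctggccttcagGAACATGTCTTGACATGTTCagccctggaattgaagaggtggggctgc
Ccng1: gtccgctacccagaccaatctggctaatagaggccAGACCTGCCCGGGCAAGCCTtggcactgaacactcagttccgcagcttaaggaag
Gtse1: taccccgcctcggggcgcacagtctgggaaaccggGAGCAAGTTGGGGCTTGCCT
Trp73: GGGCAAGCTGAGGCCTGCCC
Mdm2: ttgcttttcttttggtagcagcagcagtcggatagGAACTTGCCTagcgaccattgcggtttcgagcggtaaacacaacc

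The printed stretch of Cdkn1a is chr17:29090893-29090975 on the plus strand. Its element has 1 mismatch and lies from -51 to -32 of the upstream of the gene's 2 start sites, counting the start site as 0. The Ccng1 stretch is chr11:40755427-40755516 on the minus strand, with 1 mismatch from -195 to -176. The Gtse1 stretch is chr15:85859910-85859964 on the plus strand, and its element has 1 mismatch. This element lies from -1 to 18 of the downstream of the gene's 2 start sites, so that 19 of its 20 bases lie in an annotated exon. The Trp73 element, chr4:154097220-154097239 on the minus strand, has 2 mismatches from -66 to -47 of the downstream of the gene's 2 start sites, and all 20 bases lie in an annotated exon. The Mdm2 stretch is chr10:117710900-117710979 on the minus strand, with an exact half-site from -186 to -177. Mdm2 was picked for print by name, and its best full match has 9 mismatches. Exact half-sites in the windows of Trp53 (from -75) and Ppm1d (from -132), whose best full matches have 3 and 4 mismatches, are not printed. A match is a description of the letters, and the files hold no measure of binding.

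**Figure D1:**
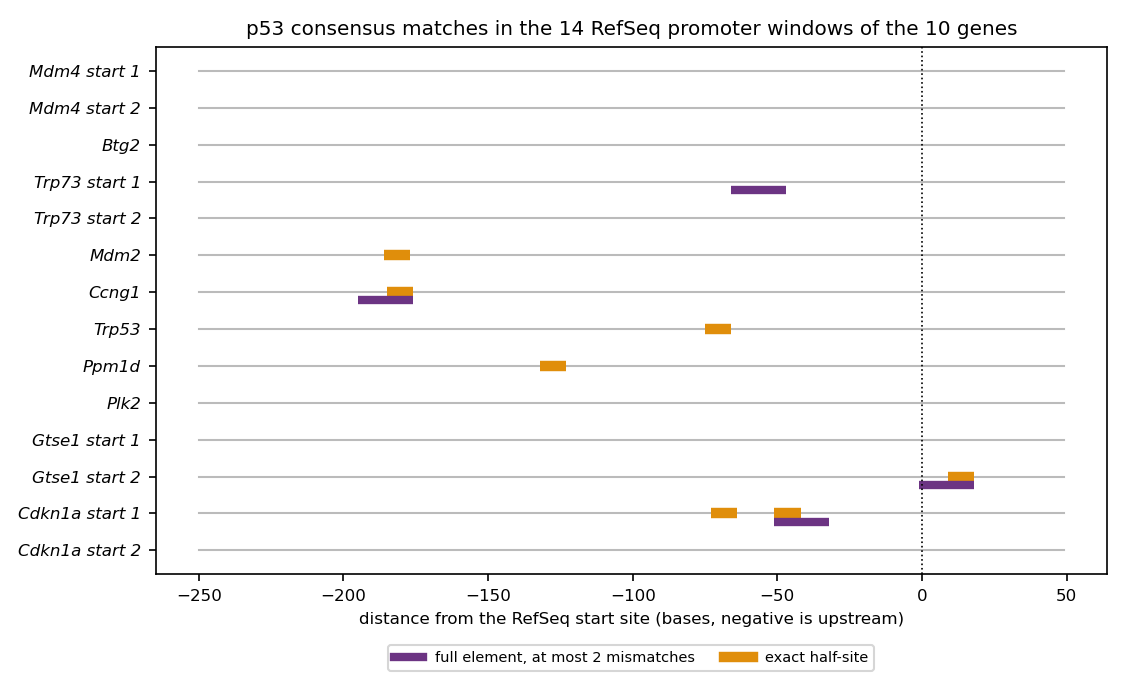
Each line is 1 RefSeq promoter window, and the x axis is the distance from its start site in bases. Purple bars mark full p53 elements with at most 2 mismatches, in 4 of 14 windows, and orange bars exact half-sites, in 6 of 14.

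Values are FPKM, fragment counts scaled to transcript length and library size, which allow levels to be compared between genes. Depth, as implied by the interval around each deposited value, was 8.99 to 16.8 M fragments per library, and the median tested gene rested on 260 to 531. Htatsf1, the deleted gene, had 4.12 and 4.63 FPKM in tamoxifen at 72 h, against 22.7 and 22.7 FPKM in ethanol at 72 h. At 48 h it had 4.13 and 3.78 FPKM in tamoxifen, against 23.0 and 21.7 FPKM in ethanol. Among 11867 tested genes, limma called 38.5% between the treatments at 72 h and 12.4% at 48 h (Benjamini-Hochberg adjusted p under 0.05). Of the calls at 48 h, 63.8% were rises with FPKM as deposited and 51.6% with median-ratio scaling of the libraries. Of 10 fixed markers of pluripotent stem cells, 9 were tested and Sox2 was listed at 0 in every library, and the 10 summed to 3355 and 3806 FPKM in tamoxifen and 4374 and 4228 FPKM in ethanol at 72 h. At 72 h 5 of the 9 fell, against 18.5% of tested genes called lower, and 4 did not pass, with a median log2 change of -0.32. Dppa5a weighed most in the sums, with means of 1938 FPKM in tamoxifen and 2516 FPKM in ethanol at 72 h. The 72 h estimates of Pou5f1 (0.10) and Utf1 (0.11) were above 0 and not called. The reason for the 0 of Sox2 was not tested.

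Each of the 10 genes was higher in tamoxifen than in ethanol at both times. At 72 h all 10 rose past the test, against 20.1% of all tested genes called higher, with a median log2 change of 0.94 and a range of 0.28 to 2.00. At 48 h the 10 rose as well, against 7.88% of tested genes, with a median of 0.74 and a range of 0.21 to 1.18. Over all tested genes the median log2 change was -0.01 at 72 h and 0.02 at 48 h. Both tamoxifen libraries lay above both ethanol libraries for each of the 10 genes at each time, which held for 35.2% of tested genes at 72 h and 32.7% at 48 h. The genes were chosen with results of these data known, so the counts are no independent support for a p53 response. All log2 changes compare log2(FPKM + 1), so those of weakly expressed genes are understated.

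**Figure D2:**
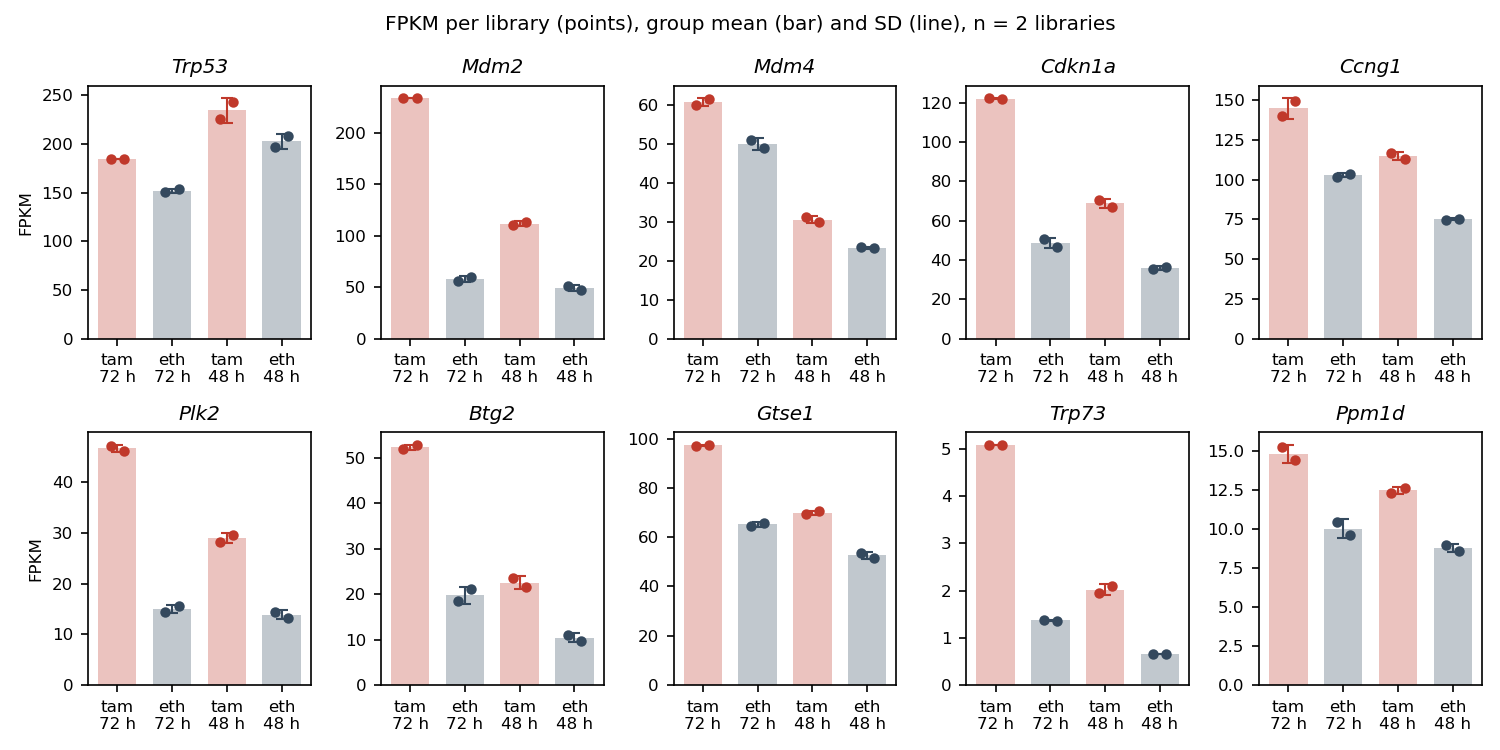
FPKM of the 10 genes, 1 panel each, with a point per library, a bar for the mean and a line for the SD (n = 2) in tamoxifen (red) and ethanol (grey) at 72 h and 48 h. In every panel both tamoxifen points stand above both ethanol points of the same time, and Trp53 is the 1 gene whose points at 72 h stand below those at 48 h in both treatments.

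Trp53 itself had, with Mdm4, the smallest changes of the 10 genes at both times. Trp53 (chr11:69393861-69405375 on mm9) had 185 and 184 FPKM in tamoxifen and 150.2 and 153 FPKM in ethanol at 72 h. The 48 h libraries had 225 and 243 FPKM in tamoxifen and 197 and 208 FPKM in ethanol. The treatments did not overlap at either time, and the 48 h values stood above the 72 h values in both treatments. In tamoxifen it was 0.28 ± 0.06 (log2 change, SE) higher at 72 h (limma adjusted p = 0.00307) and 0.21 ± 0.06 higher at 48 h (limma adjusted p = 0.0355). The call at 48 h was lost without tamoxifen replicate 1 (0.26, limma adjusted p = 0.051), tamoxifen replicate 2 (0.15, 0.224), ethanol replicate 1 (0.17, 0.218) or ethanol replicate 2 (0.25, 0.095). Median-ratio scaling, testing all genes with no filter, and limma with no mean trend also ended it, and over all 16 alternatives the adjusted p ran from 0.0329 to 0.224. Trp53 has a processed pseudogene on chromosome 17, and how reads were shared with it is not given in the sources used here.

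Mdm2 had the largest change of log2(FPKM + 1) among the 10 at both times, while Trp73 had the larger ratio of mean FPKM at 48 h and the larger log2 change in the authors' deposited tables at both times. Mdm2 (chr10:117125961-117147772) had 234 and 234 FPKM in tamoxifen at 72 h, against 55.7 and 60.1 FPKM in ethanol at 72 h. At 48 h the values were 110.2 and 114 FPKM in tamoxifen and 50.8 and 46.9 FPKM in ethanol. The lowest tamoxifen library thus stood above all 4 ethanol libraries. In tamoxifen Mdm2 was 2.00 ± 0.06 higher on the log2 scale at 72 h (SE, limma adjusted p = 7.74e-08), a ratio of means of 4.05. The rise at 48 h was 1.18 ± 0.06 (SE, limma adjusted p = 4.87e-06), a ratio of 2.29. By size of log2 change Mdm2 ranked 5 of 11867 tested genes at 72 h and 3 at 48 h. In the authors' deposited table of scaled counts for 72 h it ranked 1 of 17011 genes by p-value, with a log2 change of 1.99, and in their table for 48 h it ranked 2 of 16729, after Htatsf1.

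MDM4 lacks the ligase activity of MDM2, and its gene moved less with treatment. Mdm4 (chr1:134886422-134921925) had 60.1 and 61.6 FPKM in tamoxifen and 51.1 and 48.9 FPKM in ethanol at 72 h. Its levels at 48 h were 31.2 and 29.9 FPKM in tamoxifen and 23.5 and 23.2 FPKM in ethanol. The treatments did not overlap, but the levels at 72 h were above those at 48 h in both treatments by more than the treatments differed. The log2 change with tamoxifen was 0.28 ± 0.06 (SE) at 72 h (limma adjusted p = 0.00302) and 0.37 ± 0.06 at 48 h (limma adjusted p = 0.00256). Mdm4 also has a processed pseudogene, on chromosome X. In FPKM per library, Mdm2 over Mdm4 was 3.89 and 3.80 in tamoxifen and 1.09 and 1.23 in ethanol at 72 h. At 48 h the ratio was 3.53 and 3.80 in tamoxifen and 2.17 and 2.03 in ethanol. The ratio was thus alike at both times in tamoxifen, and in ethanol it was lower at 72 h. Mdm2 over Trp53 was 1.27 and 1.27 in tamoxifen and 0.371 and 0.392 in ethanol at 72 h, and at 48 h it was 0.489 and 0.467 in tamoxifen and 0.258 and 0.226 in ethanol. Mdm2 passed Trp53 in level in the tamoxifen libraries at 72 h and in no other group.

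Ppm1d encodes the phosphatase WIP1, which removes activating phosphates from p53 and from the kinases that signal DNA damage to it. Ppm1d (chr11:85124756-85160573) had 15.3 and 14.4 FPKM in tamoxifen and 10.5 and 9.62 FPKM in ethanol at 72 h. At 48 h it had 12.3 and 12.7 FPKM in tamoxifen and 8.97 and 8.60 FPKM in ethanol. Its log2 change was 0.52 ± 0.07 (SE) at 72 h (limma adjusted p = 0.000359) and 0.46 ± 0.07 at 48 h (limma adjusted p = 0.00334). The 3 negative regulators of p53 thus rose at both times, Mdm2 by the most and Mdm4 by the least.

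Among the genes of arrest, Cdkn1a encodes p21, the inhibitor of cyclin-dependent kinases through which p53 is known to stop cells in G1. Cdkn1a (chr17:29227931-29237667) had 122 and 122 FPKM in tamoxifen and 50.4 and 46.8 FPKM in ethanol at 72 h. The 48 h libraries had 70.4 and 67.1 FPKM in tamoxifen and 35.1 and 36.4 FPKM in ethanol. The tamoxifen libraries of both times lay above all ethanol libraries. The log2 change was 1.31 ± 0.06 (SE) at 72 h (limma adjusted p = 4.12e-07) and 0.92 ± 0.06 at 48 h (limma adjusted p = 1.61e-05). An annotated antisense transcript overlaps exons of Cdkn1a, and since the sources used here name no strand setting, reads of the pair cannot be told apart.

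Plk2 encodes a polo-like kinase that p53 is known to induce, and Btg2 an antiproliferative protein that promotes the shortening of messenger RNA tails. Plk2 (chr13:111185252-111191051) had 47.3 and 46.3 FPKM in tamoxifen and 14.5 and 15.5 FPKM in ethanol at 72 h. Its levels at 48 h were 28.3 and 29.7 FPKM in tamoxifen and 14.5 and 13.2 FPKM in ethanol. In ethanol the libraries of the 2 times overlapped, and those of tamoxifen did not. Its log2 change was 1.58 ± 0.07 (SE) at 72 h (limma adjusted p = 3.6e-07) and 1.01 ± 0.07 at 48 h (limma adjusted p = 2.27e-05). Btg2 (chr1:135971442-135975732) had 52.0 and 52.8 FPKM in tamoxifen and 18.4 and 21.1 FPKM in ethanol at 72 h. At 48 h it had 23.6 and 21.5 FPKM in tamoxifen and 11.1 and 9.78 FPKM in ethanol. Tamoxifen at 48 h was thus close to ethanol at 72 h, and the groups of 1 time did not overlap. Its log2 change was 1.37 ± 0.08 (SE) at 72 h (limma adjusted p = 2.84e-06) and 1.04 ± 0.08 at 48 h (limma adjusted p = 8.8e-05).

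Ccng1 encodes cyclin G1, which is known to recruit a phosphatase to MDM2, and Gtse1 a microtubule-binding protein of G2 and S phase that carries p53 out of the nucleus. Ccng1 (chr11:40562054-40568788) had 140.5 and 149.6 FPKM in tamoxifen and 102 and 104 FPKM in ethanol at 72 h. The 48 h libraries had 117 and 113 FPKM in tamoxifen and 74.8 and 75.6 FPKM in ethanol. It was the 1 target among the 5 arrest genes whose estimated change was smaller at 72 h, with 0.49 ± 0.05 (log2, SE, limma adjusted p = 7.17e-05), than at 48 h, with 0.61 ± 0.05 (limma adjusted p = 0.000144), and that difference did not pass the test (limma adjusted p = 0.409). Gtse1 (chr15:85690137-85707003) had 97.2 and 97.5 FPKM in tamoxifen and 64.5 and 65.9 FPKM in ethanol at 72 h. Its levels at 48 h were 69.3 and 70.5 FPKM in tamoxifen and 53.6 and 51.7 FPKM in ethanol. The 4 groups of Gtse1 did not overlap. Its log2 change was 0.57 ± 0.05 (SE) at 72 h (limma adjusted p = 2.14e-05) and 0.40 ± 0.05 at 48 h (limma adjusted p = 0.00119).

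Trp73 encodes p73, a relative of p53 that binds the same element, and it was the lowest of the 10 in every group. Trp73 (chr4:153430358-153514317) had 5.09 and 5.09 FPKM in tamoxifen and 1.38 and 1.36 FPKM in ethanol at 72 h. At 48 h it had 1.94 and 2.10 FPKM in tamoxifen and 0.663 and 0.652 FPKM in ethanol. The tamoxifen libraries of both times stood above all ethanol libraries. These values rested on 39 implied fragments in the library with the fewest and 424 in that with the most. The log2 change was 1.36 ± 0.10 (SE) at 72 h (limma adjusted p = 5.29e-06) and 0.87 ± 0.10 at 48 h (limma adjusted p = 0.000632), and the ratio of mean FPKM was 3.71 at 72 h and 3.07 at 48 h. With a pseudocount of 0.1 the log2 change was 1.82 at 72 h and 1.48 at 48 h, and with 5 it was 0.66 at 72 h and 0.31 at 48 h, all of them called. The authors' deposited tables give log2 changes of 2.03 at 72 h and 1.43 at 48 h for Trp73, with no pseudocount named. An annotated antisense transcript overlaps its exons, so reads of the pair cannot be told apart here either. In level Trp73 was 2.75% and 2.76% of Trp53 in tamoxifen and 0.916% and 0.890% of it in ethanol at 72 h.

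**Figure D3:**
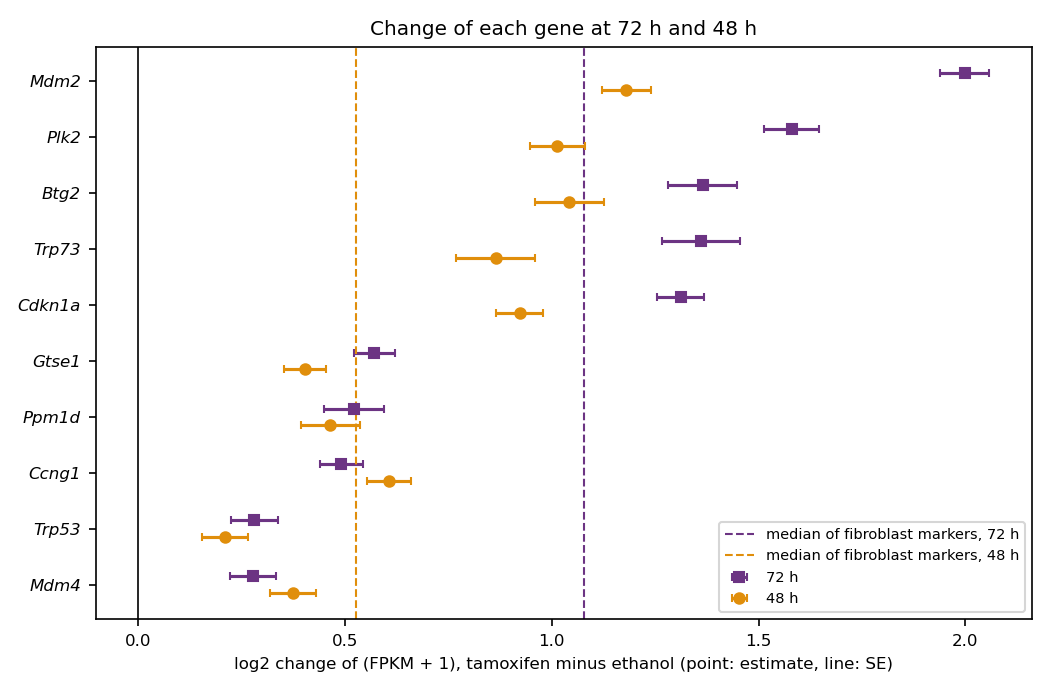
Log2 change of (FPKM + 1), tamoxifen minus ethanol, for each gene at 72 h (purple squares) and 48 h (orange circles), with lines for the SE and dashed lines for the medians of 25 tested fibroblast markers. Mdm2 is at 2.00 and 1.18, and 5 genes at 72 h and 6 at 48 h stand right of the marker median of their time.

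In order of mean FPKM, tamoxifen at 72 h ran Mdm2, Trp53, Ccng1, Cdkn1a, Gtse1, Mdm4, Btg2, Plk2, Ppm1d and Trp73, and no neighbours in that order overlapped. In ethanol at 72 h the order was Trp53, Ccng1, Gtse1, Mdm2, Mdm4, Cdkn1a, Btg2, Plk2, Ppm1d and Trp73, in which the libraries of Mdm4 and Cdkn1a overlapped. At 48 h Trp53 was first, Ccng1 second and Trp73 last in both treatments. In tamoxifen at 48 h the libraries of Ccng1 and Mdm2 overlapped, as did those of Gtse1 and Cdkn1a, and in ethanol at 48 h no neighbours did.

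Whether the response to tamoxifen was larger at the later time was tested as the difference of the 2 changes. The difference passed for 3 of the 10 genes, all with the larger change at 72 h, against 2.0% of tested genes called in that direction. For Mdm2 the change at 72 h was larger by 0.82 ± 0.08 (log2, SE, limma adjusted p = 0.0045), for Plk2 by 0.57 ± 0.09 (limma adjusted p = 0.0169) and for Cdkn1a by 0.39 ± 0.08 (limma adjusted p = 0.0329). Trp73, at 0.50 ± 0.13, did not pass (limma adjusted p = 0.0754), and the other 6 ran from -0.12 for Ccng1 to 0.32 for Btg2. Fibroblast markers, listed for the feeder cells, moved the same way. Of 25 tested markers 13 had a larger change at 72 h and 12 did not pass. Their median difference was 0.47, against a median of 0.25 for the 10 genes. No library has feeder cells alone, so which cells gave the RNA of these markers was not tested. The part of the feeder cells in these differences was not tested. Adjusted p ran from 0.00261 to 0.0614 for Mdm2 over 15 alternatives, from 0.00652 to 0.0939 for Plk2 and from 0.0193 to 0.124 for Cdkn1a. The Cdkn1a call was lost without each library in turn other than ethanol 72 h replicate 1, at values of 0.34 to 0.42. That of Plk2 was lost without tamoxifen 48 h replicate 1 (0.53), ethanol 48 h replicate 1 (0.50) or ethanol 72 h replicate 1 (0.52). Of all tested genes 409 were called for this difference, and 50 to 243 when 1 library was left out.

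The genes were also compared between the 2 times within each treatment, where in tamoxifen the length of the treatment differs as well. In tamoxifen 9 of the 10 rose between 48 h and 72 h, against 37.5% of tested genes, and Trp53 fell, against 19.6% of tested genes. In ethanol 7 of the 10 rose, against 38.0%, and Trp53 fell, against 19.2%, while Ppm1d (0.17, limma adjusted p = 0.0601) and Plk2 (0.11, limma adjusted p = 0.194) did not pass. The median of all tested genes was itself 0.11 higher at 72 h in each treatment, and with median-ratio scaling it was 0.01 in tamoxifen and -0.0017 in ethanol. That scaling lowered the share of rises among all calls to 50% in tamoxifen and 49.8% in ethanol, where it was 65.6% and 66.4% with FPKM as deposited. Changes relative to that median are therefore given beside the others. A field of the deposited tables' names is 5 for all libraries of 72 h and 4 for all of 48 h, and whatever it marks cannot be told apart from time.

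Mdm4 had the largest time change of the 10 in ethanol, 1.07 ± 0.06 (log2, SE, 72 h over 48 h, limma adjusted p = 7.24e-07) or 0.96 relative to all genes, and 0.97 ± 0.06 in tamoxifen or 0.86 relative to all genes. Each was larger than the change of Mdm4 with tamoxifen at either time. Btg2 rose with time by 1.18 in tamoxifen and 0.86 in ethanol, or 1.07 and 0.75 relative to all genes. Mdm2 rose with time by 1.06 in tamoxifen (0.94 relative to all genes), and by 0.24 ± 0.06 in ethanol (0.13 relative to all genes, limma adjusted p = 0.00585), a call that was lost with median-ratio scaling (0.11, adjusted p = 0.127), without ethanol 48 h replicate 2 (0.18) and without ethanol 72 h replicate 2 (0.19). Plk2 rose by 0.67 in tamoxifen, and its estimate in ethanol was below 0 with median-ratio scaling (-0.015) and quantile normalization (-0.017). Trp53 fell by 0.34 in tamoxifen and by 0.41 in ethanol, or by 0.46 and 0.52 relative to all genes. The rise of Ppm1d in tamoxifen (0.23, limma adjusted p = 0.0188) was lost with median-ratio scaling (0.12, adjusted p = 0.19), with quantile normalization (0.11), without tamoxifen 48 h replicate 1 (0.21) and without tamoxifen 72 h replicate 1 (0.19). The changes of Cdkn1a, Ccng1, Gtse1 and Trp73 with time were called in both treatments under every alternative run. The tamoxifen and ethanol time changes share no library, but both share libraries with the treatment comparisons.

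**Figure D4:**
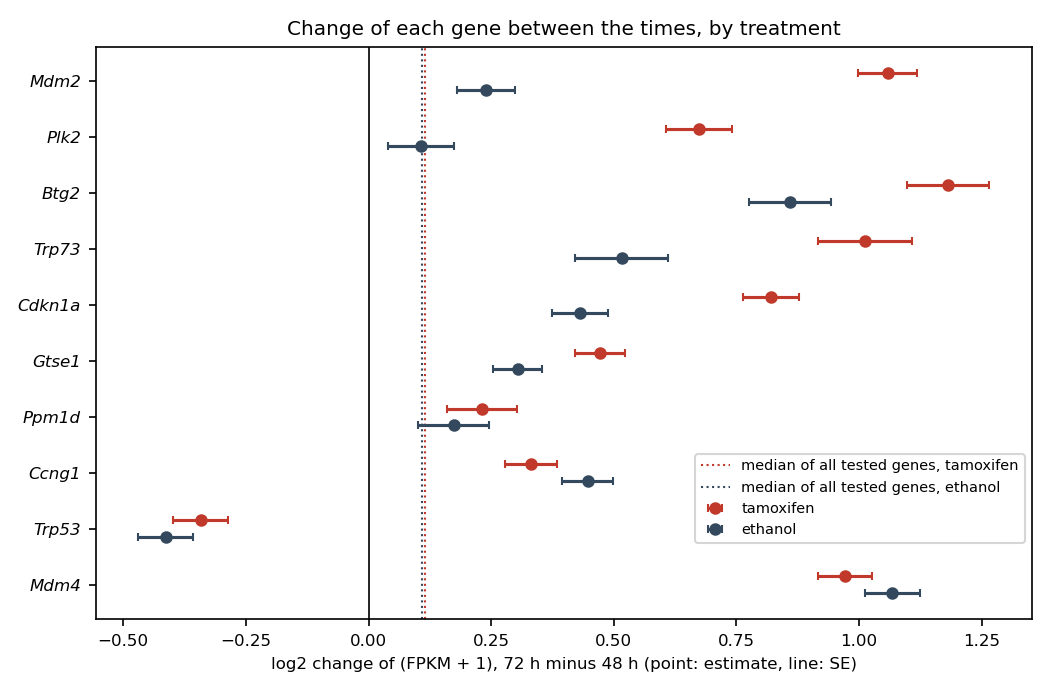
Log2 change of (FPKM + 1), 72 h minus 48 h, for each gene in tamoxifen (red) and ethanol (grey), with lines for the SE and dotted lines for the median of all tested genes in each treatment, both at 0.11. Trp53 is left of 0 in both treatments, Mdm4 is near 1 in both, and Mdm2 and Plk2 are the genes whose treatments stand farthest apart.

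Most of a list of other known targets of p53 rose as well. Of 30 listed, 28 were tested. At 72 h 20 rose, against 20.1% of tested genes called higher, while 8 did not pass, with a median log2 change of 0.44. The changes at 72 h ranged from -0.20 to 1.42. At 48 h 17 rose, against 7.88% of tested genes, while 11 did not pass, with a median of 0.32. Perp, a membrane protein gene of cell adhesion and p53-driven death, averaged 73.0 ± 3.71 FPKM in tamoxifen and 26.7 ± 1.05 FPKM in ethanol at 72 h (SD, n = 2 each), a log2 change of 1.42 (limma adjusted p = 5.76e-07). Pmaip1, which encodes the death-promoting BH3-only protein NOXA, averaged 81.1 ± 10.4 FPKM in tamoxifen and 30.1 ± 2.35 FPKM in ethanol at 72 h (SD, n = 2 each, limma adjusted p = 2.79e-06). The medians of the 10 genes (0.94 and 0.74) stood above those of this list at the same times, and the difference was not tested.

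Among regulators upstream of p53 more genes fell than rose at 72 h. At 72 h 2 of 18 rose, against 20.1% of tested genes called higher. In the same comparison 7 fell, against 18.5% called lower, and the median log2 change was -0.11. At 48 h 1 rose, against 7.88% of tested genes called higher, and 17 did not pass. Atr and Atm encode the kinases that signal DNA damage, and at 72 h they fell by 0.46 (limma adjusted p = 0.000903) and 0.34 (limma adjusted p = 0.00309). Cdkn2a, whose ARF product holds back MDM2, rose by 0.54 (limma adjusted p = 0.000363) and averaged 24.0 ± 2.31 FPKM in tamoxifen and 16.2 ± 0.44 FPKM in ethanol at 72 h (SD, n = 2 each). Kat5, an acetyltransferase of p53, rose by 0.21 (limma adjusted p = 0.0419), a call lost in 10 of 16 alternatives. Of the 9 calls in this list, 5 were made without tamoxifen 72 h replicate 1, and 5 without ethanol 72 h replicate 2.

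Genes of G2 and mitosis, which p53 and p21 are known to lower through the DREAM complex, fell in part. At 72 h 13 of 22 fell, against 18.5% of tested genes called lower, 1 rose and 8 did not pass, with a median log2 change of -0.22. At 48 h 6 fell, against 4.47% of tested genes called lower, and 16 did not pass, with a median of -0.04. Of 9 tested pluripotent stem cell markers 5 fell at 72 h too and 4 did not pass, with a median of -0.32. The cause of these falls was not tested. Bub1, a kinase of the spindle checkpoint, averaged 26.0 ± 0.76 FPKM in tamoxifen and 44.6 ± 1.79 FPKM in ethanol at 72 h (SD, n = 2 each), a log2 change of -0.76 (limma adjusted p = 2.61e-05). Aurkb, a kinase of chromosome segregation, fell by 0.46 (limma adjusted p = 0.000526), and Cdc20, an activator of the anaphase-promoting complex, rose by 0.23 (limma adjusted p = 0.0042).

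Among cyclins, cyclin-dependent kinases and their inhibitors, 9 of 18 rose and 3 fell at 72 h, with a median log2 change of 0.23. Of all tested genes 20.1% were called higher and 18.5% lower at that time. At 48 h 6 of the 18 rose and 1 fell, against 7.88% and 4.47% of tested genes. Ccnd2 and Ccnd1, the genes of the D cyclins that drive entry into the cycle, rose by 1.01 (limma adjusted p = 3.43e-06) and 0.89 (limma adjusted p = 3.17e-06) at 72 h. Cdk2 fell by 0.25 (limma adjusted p = 0.00584). Cdkn1b, which encodes p27, a relative of p21, fell by 0.30 (limma adjusted p = 0.0293), while Cdkn1a rose. That call of Cdkn1b was lost without tamoxifen 72 h replicate 1 (-0.17), ethanol 72 h replicate 1 (-0.33) or ethanol 72 h replicate 2 (-0.28), and without the filter on low values.

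Paralogs, relatives by sequence, were read beside the 10 genes. Of 12 tested paralogs 3 rose, 2 fell and 7 did not pass at 72 h, with a median log2 change of 0.05. Of all tested genes 20.1% were called higher and 18.5% lower at that time, so the paralog counts are near those shares. Plk3, a polo-like kinase, rose by 0.58 (limma adjusted p = 0.000143) and Btg1 by 0.45 (limma adjusted p = 0.00119), while Plk2 rose by 1.58 and Btg2 by 1.37. Plk4, the kinase of centriole duplication, fell by 0.24 (limma adjusted p = 0.012), a call that was lost without tamoxifen 72 h replicate 1 (-0.21) and without ethanol 72 h replicate 2 (-0.22). Of 5 calls among the paralogs, 3 were made without tamoxifen 72 h replicate 1, 3 without ethanol 72 h replicate 1 and 2 without ethanol 72 h replicate 2.

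The fibroblast markers were higher in these tamoxifen libraries too. At 72 h 24 of 25 tested markers rose, against 20.1% of tested genes called higher, and 1 did not pass, with a median log2 change of 1.08. At 48 h 23 rose, against 7.88% of tested genes, with a median of 0.53. The 26 markers listed summed to 1606 and 1700 FPKM in tamoxifen and 844 and 873 FPKM in ethanol at 72 h. At 48 h they summed to 1185 and 1178 FPKM in tamoxifen and 854 and 812 FPKM in ethanol, and no marker was at 0 in every library. Twist2, a transcription factor of mesenchyme, rose by 1.53 at 72 h (limma adjusted p = 5.83e-06). Acta2, smooth muscle actin, averaged 105 ± 0.80 FPKM in tamoxifen and 36.3 ± 2.37 FPKM in ethanol at 72 h (SD, n = 2 each, limma adjusted p = 3.6e-07). Mdm2, Plk2, Btg2, Trp73 and Cdkn1a changed by more than the marker median at 72 h, and the same 5 and Ccng1 did at 48 h. Single markers ranged from 0.16 to 1.53 at 72 h, a range that also held Btg2, Trp73 and Cdkn1a. At 48 h the markers ranged from 0.20 to 0.79, which held Ccng1 but not the other 5. Between the times in tamoxifen, 20 of the 25 markers rose and 5 did not pass, with a median of 0.44, and 9 of the 10 genes rose. Of all tested genes 37.5% were called higher and 19.6% lower between the times in tamoxifen. Between the times in ethanol, 2 markers rose and 7 fell, with a median of 0.03, and 7 of the 10 genes rose. Of all tested genes 38.0% were called higher and 19.2% lower between the times in ethanol. The median of all tested genes was 0.11 in each treatment. Fibroblasts are known to express p53 and its targets too, so more feeder RNA and more RNA per stem cell cannot be told apart in such bulk samples, and the part of the feeder cells in the changes was not tested.

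**Figure D5:**
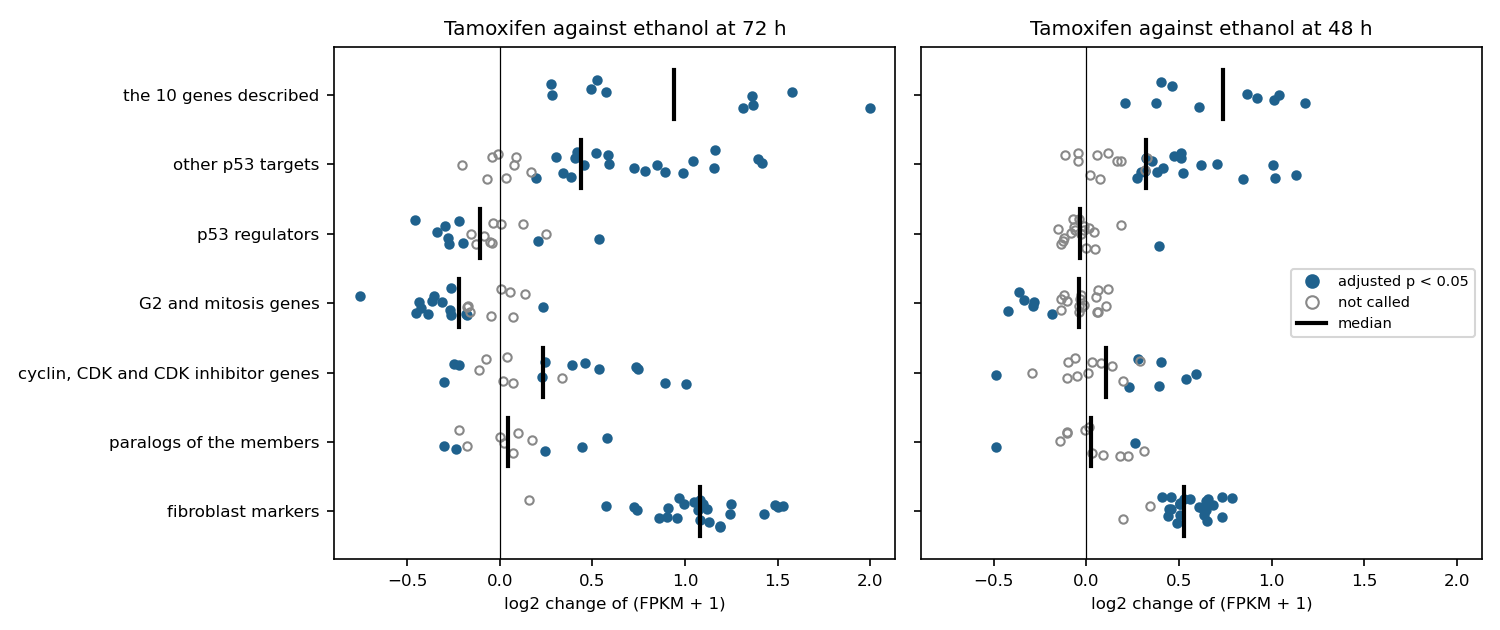
Log2 change of (FPKM + 1), tamoxifen minus ethanol, at 72 h (left) and 48 h (right), with 1 point per tested gene, filled where the limma adjusted p was under 0.05, and a black bar for the median of each list. At 72 h the medians are 0.94 for the 10 genes, 0.44 for other p53 targets and 1.08 for fibroblast markers, and -0.22 for G2 and mitosis genes.

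Over the 8 libraries the pattern of most of the 10 genes was alike. The Pearson correlation of log2(FPKM + 1) with Mdm2 was 0.995 for Plk2, 0.985 for Cdkn1a, 0.976 for Trp73 and 0.611 for Mdm4, and 0.197 for Trp53. These are descriptions over 8 points that share treatment and time. Among tested genes outside the 10, the 3 most like Mdm2 were Plxdc2 (0.999), Thbs1 (0.998) and Col1a1 (0.998), of which Thbs1 and Col1a1 stand on the list of fibroblast markers. Their log2 changes at 72 h were 0.90, 1.05 and 1.19, smaller than that of Mdm2. Those most like Cdkn1a were Txnrd1 (0.997), Foxn4 (0.996) and Zfp365 (0.995), and those most like Trp53 were Cep76 (0.986), Zscan10 (0.984) and Psmd2 (0.982). Zfp365 averaged 50.4 FPKM in tamoxifen and 13.4 FPKM in ethanol at 72 h, and 24.6 FPKM in tamoxifen and 8.72 FPKM in ethanol at 48 h.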

How the data were processed

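Polyadenylated RNA was sequenced as paired ends, per the labels' protocols. The authors deposited FPKM per gene, in 1 table for each library. The submitters' processing notes name HTSeq, DESeq, Cufflinks 1.3.0, TopHat 1.4.1 and BWA 0.6.1 with the build mm9, and their roles are not given in the sources used here. In 2 further tables the authors deposited, for each time, group means that are a signal of scaled counts, a fold ratio, a log2 fold change (ethanol over tamoxifen, turned here) and p-values, which are quoted as the authors' own.

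Entries whose status was not OK in any library (209 of 20789) were left out, and 1 entry per identifier was kept. Genes of FPKM at least 1 in at least 2 libraries were tested (11867) as log2(FPKM + 1), in 1 limma fit over the 8 libraries (R 4.3.3, limma 3.58.1, mean trend, two-sided, Benjamini-Hochberg adjustment over all tested genes in each comparison, called under 0.05). The fit was also run on simulated data with independent noise in each library, which checks the code and not the spread of these libraries. Fragments behind a value were estimated from its deposited interval, and cover counting error only. The 2 libraries of a group differed by more than counting noise (1.58 to 2.48 times its variance), so none is a copy of the other. Positions were made 1-based on mm9, and promoter sequences and exons are those of RefSeq and GENCODE on GRCm38.

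The 10 genes and all lists were chosen with earlier results of these data known. Named are the 10 genes, Htatsf1, the 2 largest called rises and falls at 72 h in each of 6 lists (other p53 targets, p53 regulators, G2 and mitosis, cyclins and kinases, paralogs, fibroblast markers), and the 3 genes most correlated with Mdm2, Cdkn1a and Trp53. Alternatives were 2 other pseudocounts, no filter, 2 other scalings, no trend, only the 4 libraries compared, a replicate block, and leaving out each library.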

Additional observations from a re-analysis of the deposited data

Results flagged for a closer look

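For 3 genes the change with tamoxifen differed between the times, by the test of the difference itself in the limma fit. The log2 change of Mdm2 was 2.00 at 72 h and 1.18 at 48 h, a difference of 0.82 (adjusted p = 0.0045). That of Plk2 was 1.58 at 72 h and 1.01 at 48 h, a difference of 0.57 (adjusted p = 0.0169). That of Cdkn1a was 1.31 at 72 h and 0.92 at 48 h, a difference of 0.39 (adjusted p = 0.0329). Over 15 alternatives the call of this difference was lost in 1 for Mdm2, in 4 for Plk2 and in 10 for Cdkn1a. Groups of 2 libraries are too small for a test of outlying libraries.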

How the results depend on the processing

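The 10 rises at 72 h kept direction and call under all 16 alternatives run. Of the 10 rises at 48 h, that of Trp53 lost its call in 7 of 16 and the other 9 in none. Without the filter on low values 523 genes were called at 48 h (1466 with it), 30 for the difference of the changes (409 with it) and 0 of the 10 genes for it (3 with it, and 5 at an unadjusted p under 0.05), and 7 cyclin and kinase genes (12 with it) and 3 paralogs (5 with it) at 72 h. Without the mean trend 226 genes were called for the difference. Leaving out 1 library gave 440 to 1583 calls at 48 h (440 to 756 where it was a library of that time), 50 to 243 calls and 1 to 2 of the 10 genes for the difference, and at 72 h 5 to 10 p53 regulators and 2 to 5 paralogs. Plk2 between the times in ethanol, not called, was reversed with median-ratio scaling (-0.015) and quantile normalization (-0.017). For Trp73 the difference of the changes passed in limma at adjusted p = 0.0402 (0.50) when the trend was dropped and at adjusted p = 0.0123 (0.35) when the pseudocount was 5. The difference for Cdkn1a did not pass when the trend was dropped (0.39, limma adjusted p = 0.0797). In each case the cause was not tested.

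Whether the replicate numbers pair the libraries is not known. Deviations of same-numbered libraries correlated at -0.062 between the treatments at 72 h and 0.0024 at 48 h. They correlated at -0.276 between the times in tamoxifen and 0.145 in ethanol, and at -0.045 and 0.031 in the remaining pairs of groups. Such correlations cannot show whether libraries shared a culture or a batch. With the numbers as a replicate block, 266 genes were called for the difference, and Cdkn1a was not among them (adjusted p = 0.0502).

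With 2 libraries in a group the spread is poorly known, and a p that misses the threshold does not show that values were alike. Trp73 rests on the fewest fragments. No library here has tamoxifen in cells without the floxed allele, and none has feeder cells alone.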

Other observations

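Marker lists of other cell types that such cultures can hold were read in the same libraries. At 72 h 20.1% of all tested genes were called higher and 18.5% lower. Of 4 tested primitive endoderm markers 3 rose at 72 h and 1 did not pass, and the 7 listed summed to 11.6 and 12.6 FPKM in tamoxifen and 6.00 and 6.84 FPKM in ethanol. Of 4 tested trophoblast markers 2 rose and 1 fell, with sums of 134 and 128 FPKM in tamoxifen and 120.1 and 121 FPKM in ethanol at 72 h. Of 3 tested neuroectoderm markers 1 fell and 2 did not pass, with sums of 35.2 and 31.4 FPKM in tamoxifen and 36.0 and 37.2 FPKM in ethanol at 72 h, and Sox1 was listed at 0 in every library. Pdgfra stands on the lists of fibroblast and primitive endoderm markers.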
